A study of Mus musculus with 6 samples.

Results

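Receptor and signaling genes for interleukin-10 (IL-10), IL-6 and IL-4 were examined in the adipocyte fraction of epididymal fat. The set held 10 genes of the 35122 in the count table, found by the Ensembl identifier of each gene symbol, and all 10 had enough counts to be tested. These were the receptor genes Il10ra, Il10rb, Il6ra, Il6st, Il4ra and Il13ra1, the kinase gene Jak2, the transcription factor genes Stat3 and Stat6, and the inhibitor gene Socs3. The controls were 3 PU.1 fl/fl mice and the knockouts 3 AdipoqCre_PU.1 fl/fl (aPU.1KO) mice, all male C57BL/6 on chow, with 1 RNA-seq library per mouse. Both groups carry the floxed Spi1 gene, in which loxP sites flank 1 exon, and only aPU.1KO mice carry Cre, driven by the adiponectin promoter, which is active in adipocytes. Spi1 encodes PU.1, an ETS-family transcription factor best known from macrophages and other myeloid cells. No control carried Cre without the floxed gene. The labels put every mouse at 10 to 11 months of age, while the paper's text places the sequenced mice beyond 1 year. The adipocyte fraction is the floating layer left after collagenase digestion and a slow spin, and it was not sorted further.

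Each of these cytokines binds a receptor made of a ligand-binding chain and a partner chain. IL-10 uses IL-10Rα with the broadly expressed IL-10Rβ, IL-6 uses IL-6Rα with gp130 (Il6st), and IL-4 uses IL-4Rα with either the common γ chain or IL-13Rα1. Bound JAK kinases then phosphorylate STAT proteins. IL-10 and IL-6 act mainly through STAT3, and IL-4 and IL-13 through STAT6. STAT3 induces Socs3, whose product blocks gp130 but not the IL-10 receptor. In adipose tissue, IL-10 and IL-4 are known for restraining inflammation and for alternative activation of macrophages, and IL-6 is made by many cells, adipocytes included.

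Library totals ran from 20550252 to 24310144 estimated counts in 5 libraries and reached 69283842 in control mouse 1. Spi1 had 24.3, 6.35 and 26.7 CPM (counts scaled to library size by the TMM method, the unit of all levels below) in control mice 1, 2 and 3 and 3.20, 1.22 and 4.17 CPM in aPU.1KO mice 1, 2 and 3, counting reads of all its exons. The adipocyte marker Adipoq stood between 2448 and 2847 CPM in the controls and between 3359 and 3943 CPM in aPU.1KO mice. Markers of other cells were present as well. Of 16 macrophage markers, 14 were lower in aPU.1KO mice at an unadjusted p under 0.05 (edgeR), all but Cd163 and Mertk. The summed level of all 16 was 2091, 560.5 and 2032 CPM in the controls and 407.2, 269.9 and 391.3 CPM in aPU.1KO mice, so control mouse 2 stood apart from the other controls. The macrophage marker Adgre1 had 129.3, 26.2 and 115.0 CPM in the controls and 21.3, 7.96 and 15.7 CPM in aPU.1KO mice. At the same p, 9 of 11 progenitor and fibroblast markers, 8 of 8 hepatocyte markers, 3 of 3 mast cell, 2 of 8 endothelial, 2 of 4 T and NK cell, 1 of 2 neutrophil, 0 of 6 mesothelial and 0 of 4 B cell markers tested were lower, against 13.7% of all genes. Of 10 adipocyte markers 7 were higher, against 11.9% of all genes, and 1 was lower. In such bulk RNA, fewer cells of a type and less RNA per cell cannot be told apart.

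Sequence upstream of the start was taken from RefSeq (GRCm38.p6) for the 8 genes with an entry, in a window of 250 bases. Il10ra and Il10rb had no entry, so neither could be shown or searched. Il13ra1, Il6st and Il4ra are shown because these receptor genes were lower in aPU.1KO mice at an unadjusted p, and Socs3 because it is the STAT3-induced inhibitor of the set. Each stretch is written 5′ to 3′ on the strand of its gene and leaves out annotated exons, so that Il4ra and Socs3 are shorter than the window. The Socs3 stretch precedes the RefSeq start used here and the first exon of the annotated protein-coding transcript, but it lies inside the span given for Socs3 below, which a non-coding transcript extends. The positions are chrX:36111858-36112107 (+) for Il13ra1, chr13:112463820-112464069 (+) for Il6st, chr7:125552021-125552119 (+) for Il4ra and chr11:117969452-117969616 (-) for Socs3. Capitals mark the match to TTCNNNGAA, a spacing that STAT3 binds.
Il13ra1: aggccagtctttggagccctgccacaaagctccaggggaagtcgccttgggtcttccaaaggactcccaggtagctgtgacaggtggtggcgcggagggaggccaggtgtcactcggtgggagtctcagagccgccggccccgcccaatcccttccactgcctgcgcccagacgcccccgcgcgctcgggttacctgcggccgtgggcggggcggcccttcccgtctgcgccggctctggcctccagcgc
Il6st: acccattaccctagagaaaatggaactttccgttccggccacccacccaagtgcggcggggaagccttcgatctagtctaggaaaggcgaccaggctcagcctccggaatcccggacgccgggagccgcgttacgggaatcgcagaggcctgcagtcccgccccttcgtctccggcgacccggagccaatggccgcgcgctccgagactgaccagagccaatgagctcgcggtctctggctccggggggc
Il4ra: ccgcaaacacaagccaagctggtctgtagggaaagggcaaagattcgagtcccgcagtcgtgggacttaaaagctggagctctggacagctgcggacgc
Socs3: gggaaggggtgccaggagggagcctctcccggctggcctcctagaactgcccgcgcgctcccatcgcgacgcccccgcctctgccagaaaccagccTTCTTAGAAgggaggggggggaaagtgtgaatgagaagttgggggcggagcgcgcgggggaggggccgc

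The letters of 4 motifs were searched on both strands of the 8 windows and of the 32851 windows of that length in the reference. TTCNNNGAA matched in Socs3 alone of the 8, as TTCTTAGAA at bases -154 to -146 from the RefSeq start, and in 7.02% of all windows. For Socs3 and Jak2 the sequence checked just after that start was not found in an annotated transcript of the gene. Distances from the start are therefore uncertain for both, and the exon-free Socs3 stretch ends at base -86. TTCNNNNGAA, the wider spacing that STAT6 prefers, matched in 0 of 8 against 5.85% of all windows. GAGGAAGT, a PU.1-type site, matched in 0 of 8 against 2.44%. Its inner AGGAAG, common to many ETS factors, matched in Il4ra, Il6ra, Jak2, Stat3 and Stat6, against 29.5% of all windows. In Il4ra this match lay at bases -7 to -2, inside an annotated first exon, and is not in the stretch printed above. The whole Il6ra window, its match at bases -174 to -169 included, is also annotated as exon. A match is a description of the letters, and the counts used here do not measure binding.

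None of the 10 genes passed an adjusted p under 0.05 in edgeR's quasi-likelihood test, which 0.237% of the 13925 genes tested did. At an unadjusted p under 0.05, 4 were lower in aPU.1KO mice (Il10ra, Il13ra1, Il4ra and Il6st), against 13.7% of all genes, and 0 were higher, against 11.9%. In these 4 every aPU.1KO library also lay below every control library, a pattern of 15.5% of all genes, and 0 of 10 lay wholly above, against 16.7%. DESeq2, the test named in the study's methods, gave Il10ra and Il13ra1 an adjusted p under 0.05 as lower, where 7.48% of genes were lower by that rule. It called 0 of the 10 higher, against 3.51%. The median log2 fold change of the set was -0.22, beside 0.014 for all genes tested. All 6 receptor genes had a log2 fold change below 0, and 6 of the 10 genes lay within 0.3 of 0. Without control mouse 1, edgeR gave 2 of the 10 an unadjusted p under 0.05, and without control mouse 2 it gave Il10ra and Il13ra1 an adjusted p under 0.05. The fit without control mouse 2 gave 1193 of 14306 genes such an adjusted p, beside 33 of 13925 with all mice. For the fit without control mouse 1, the share of all genes at an unadjusted p was not computed.

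**Figure D1:**
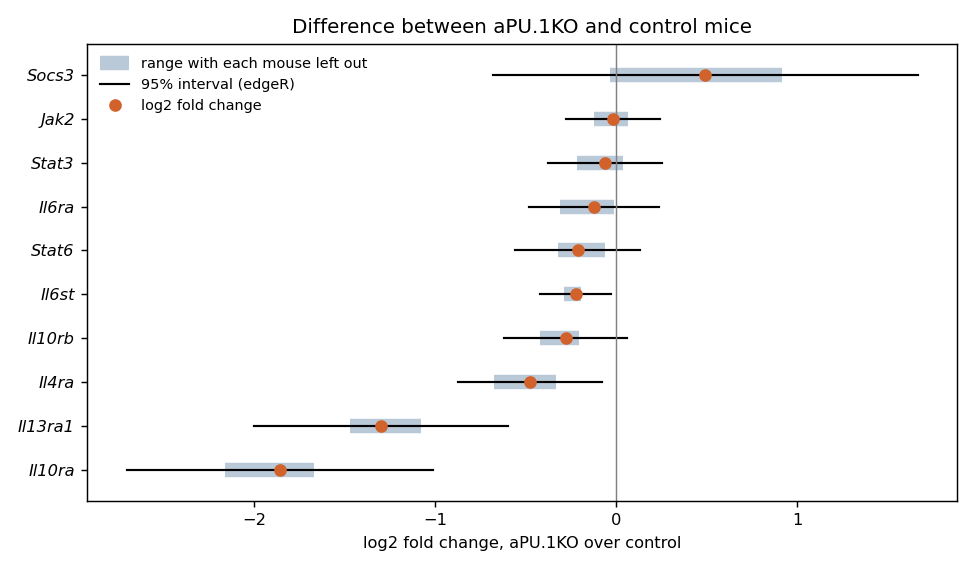
Log2 fold change of each of the 10 genes, aPU.1KO over control (x axis), with the 95% interval from edgeR as a line and the range with each mouse left out in turn as a pale bar. The intervals of Il10ra, Il13ra1, Il4ra and Il6st lie below 0, and that of Socs3 is the widest, from -0.68 to 1.67.

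Il10ra (ENSMUSG00000032089; chromosome 9, 45253837 to 45269149, minus strand, GRCm38) encodes the private ligand-binding chain of the IL-10 receptor. It had 16.6, 7.14 and 15.9 CPM in control mice 1, 2 and 3 and 3.20, 3.12 and 4.64 CPM in aPU.1KO mice 1, 2 and 3. Every aPU.1KO mouse was below every control, and control mouse 2, the control with the lowest macrophage marker sum, was also the control nearest to the aPU.1KO mice. The means were 13.2 ± 5.29 CPM in controls and 3.65 ± 0.856 CPM in aPU.1KO mice (SD, n = 3), a fold change of 0.275. The log2 fold change was -1.86 (standard error 0.36, 95% interval -2.71 to -1.01, edgeR adjusted p = 0.0745), and DESeq2 gave an adjusted p of 3.05e-05. These levels rest on 63 to 98 counts per aPU.1KO library and on 163 to 1208 per control library.

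Il10rb (ENSMUSG00000022969; chromosome 16, 91406164 to 91425834, plus strand) encodes the shared chain, which also serves the receptors of IL-22 and type III interferons. Its levels were 64.5, 48.2 and 66.2 CPM in the controls and 46.7, 45.4 and 55.4 CPM in aPU.1KO mice. The groups overlapped, since control mouse 2 lay below aPU.1KO mouse 3. The log2 fold change was -0.28 (standard error 0.14, 95% interval -0.62 to 0.061, edgeR adjusted p = 0.267). Without control mouse 2 it was -0.42, at an unadjusted p under 0.05 (edgeR adjusted p = 0.0764). Of its exons, 569 bases are shared on the same strand with Gm21970, which had at most 1 count in any library.

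The balance of the pair was then taken within each library, where it does not depend on scaling. There were 0.258, 0.148 and 0.241 counts of Il10ra per count of Il10rb in the controls and 0.0691, 0.0692 and 0.0842 in aPU.1KO mice. The groups did not overlap. The log2 ratio differed by -1.51, with means of -2.25 ± 0.44 in controls and -3.76 ± 0.16 in aPU.1KO mice (SD, n = 3). The exact two-sided permutation p was 0.1, the smallest that 3 against 3 libraries can give.

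Il6ra (ENSMUSG00000027947; chromosome 3, 89864059 to 89913196, minus strand) encodes the chain that binds IL-6 and that can be shed in soluble form. It had 45.5, 42.4 and 44.5 CPM in the controls and 33.8, 37.3 and 50.6 CPM in aPU.1KO mice. The aPU.1KO mice lay on both sides of the controls, with mouse 3 the highest of all 6. The log2 fold change was -0.12 (standard error 0.15, 95% interval -0.48 to 0.24, edgeR adjusted p = 0.652). Without aPU.1KO mouse 3 it was -0.31, at an unadjusted p under 0.05 (edgeR adjusted p = 0.108), without aPU.1KO mouse 1 it was -0.015, and without aPU.1KO mouse 2 it was -0.068. It shares 242 exonic bases with the antisense gene Gm42809, and whether the counting used strand is not given in the sources used here.

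Il6st (ENSMUSG00000021756; chromosome 13, 112464070 to 112510086, plus strand) encodes gp130, the signal-transducing chain for IL-6, IL-11, leukemia inhibitory factor and related cytokines. Its levels were 253.9, 259.4 and 226.3 CPM in the controls and 215.6, 205.8 and 211.4 CPM in aPU.1KO mice. All aPU.1KO mice lay below all controls, but by a narrow margin between aPU.1KO mouse 1 and control mouse 3. The means were 246.5 ± 17.8 and 211.0 ± 4.91 CPM (SD, n = 3), a fold change of 0.856. The log2 fold change was -0.22 (standard error 0.083, 95% interval -0.42 to -0.027, unadjusted p = 0.0314, edgeR adjusted p = 0.156). The DESeq2 adjusted p was 0.0860. The unadjusted p was above 0.05 when the fit left out control mouse 1, control mouse 2, aPU.1KO mouse 2 or aPU.1KO mouse 3.

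The balance of Il6ra and Il6st was taken in the same way. The ratio of Il6ra to Il6st counts was 0.179, 0.163 and 0.197 in the controls and 0.157, 0.181 and 0.240 in aPU.1KO mice. The groups overlapped, with a difference of 0.081 in the log2 ratio (exact two-sided permutation p = 0.8).

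Il4ra (ENSMUSG00000030748; chromosome 7, 125552120 to 125579474, plus strand) encodes the chain common to every IL-4 receptor and to the IL-13 receptor. It had 33.7, 34.4 and 29.8 CPM in the controls and 22.4, 29.2 and 18.7 CPM in aPU.1KO mice. The groups did not overlap, although aPU.1KO mouse 2 nearly reached control mouse 3. The means were 32.6 ± 2.48 and 23.4 ± 5.37 CPM (SD, n = 3), a fold change of 0.718. The log2 fold change was -0.48 (standard error 0.17, 95% interval -0.88 to -0.078, unadjusted p = 0.0257, edgeR adjusted p = 0.141). DESeq2 gave an adjusted p of 0.0755. For Il4ra the unadjusted p was above 0.05 in fits that left out control mouse 1, control mouse 2, aPU.1KO mouse 1 or aPU.1KO mouse 3. The antisense gene Gm44876 shares 571 exonic bases with it.

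Il13ra1 (ENSMUSG00000017057; chromosome X, 36112110 to 36171259, plus strand) encodes the chain that joins IL-4Rα in the type II receptor, through which both IL-4 and IL-13 signal outside the lymphoid lineage. It had 6.32, 4.25 and 6.31 CPM in the controls and 1.47, 2.58 and 2.79 CPM in aPU.1KO mice. Each aPU.1KO mouse was below each control, and control mouse 2 was again the lowest control. The means were 5.62 ± 1.19 and 2.28 ± 0.708 CPM (SD, n = 3), a fold change of 0.406. The log2 fold change was -1.30 (standard error 0.30, 95% interval -2.0 to -0.60, edgeR adjusted p = 0.0786), and the DESeq2 adjusted p was 0.00157. With 29 to 59 counts per aPU.1KO library, this was the most thinly counted gene of the set.

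**Figure D2:**
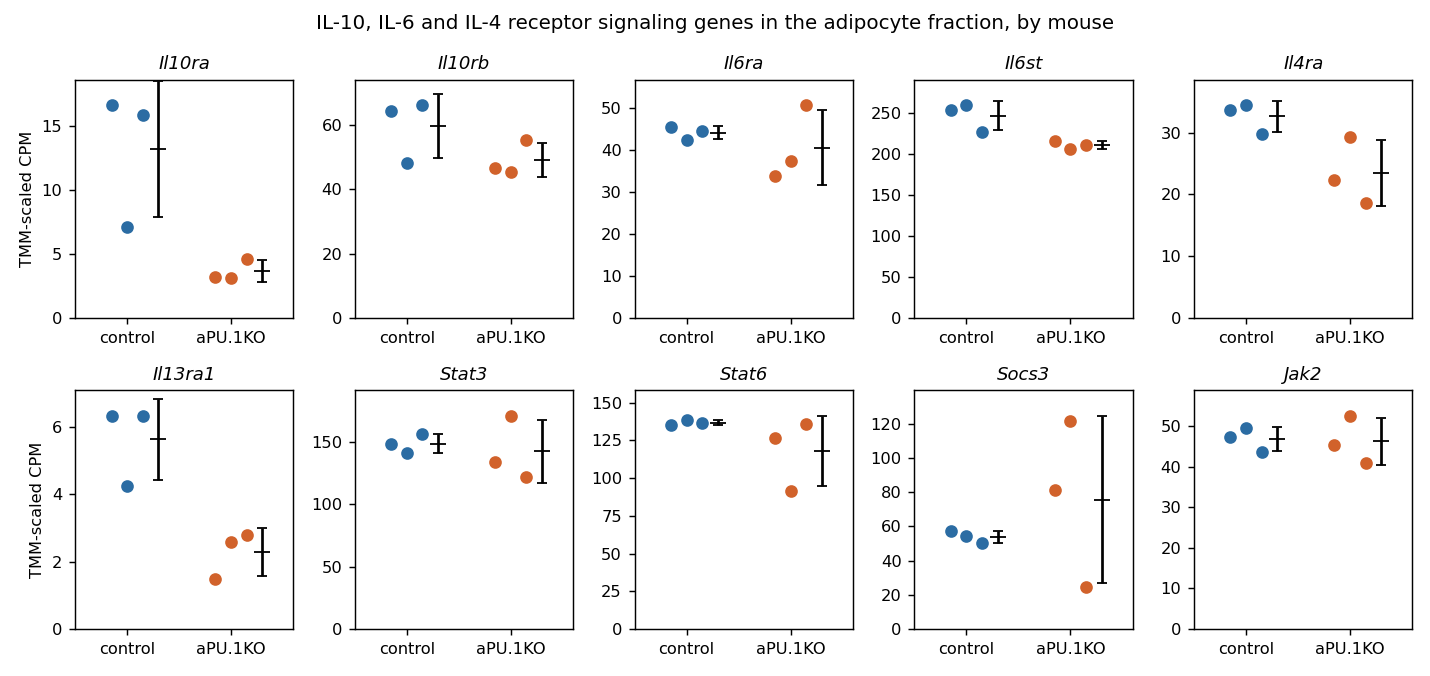
TMM-scaled CPM (y axis, from 0, a separate scale for each gene) of the 10 genes, with 1 point per mouse and the mean ± SD of the 3 mice of each group beside the points. Il10ra and Il13ra1 show separated groups with control mouse 2 as the lowest control, and Socs3 shows aPU.1KO mice on both sides of tightly grouped controls.

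Jak2 (ENSMUSG00000024789; chromosome 19, 29251828 to 29313080, plus strand) encodes a kinase bound to gp130 and to several other cytokine receptors. Its levels were 47.3, 49.5 and 43.7 CPM in the controls and 45.4, 52.6 and 40.9 CPM in aPU.1KO mice. The aPU.1KO mice spanned the controls. With a log2 fold change of -0.017 (95% interval -0.28 to 0.24, edgeR adjusted p = 0.938), it had the smallest difference of the 10 genes.

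Stat3 (ENSMUSG00000004040; chromosome 11, 100885098 to 100939540, minus strand) encodes the transcription factor used by IL-10 and IL-6. It had 148.4, 141.0 and 156.5 CPM in the controls and 134.2, 170.7 and 121.9 CPM in aPU.1KO mice. The highest and the lowest of the 6 libraries were both from aPU.1KO mice, and the log2 fold change was -0.063 (95% interval -0.38 to 0.25, edgeR adjusted p = 0.796). Without aPU.1KO mouse 2 it was -0.22, at an unadjusted p under 0.05 (edgeR adjusted p = 0.194), and without aPU.1KO mouse 3 it was 0.040. Stat3 shares 72 exonic bases with Stat5a on the opposite strand.

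Stat6 (ENSMUSG00000002147; chromosome 10, 127642986 to 127660957, plus strand) encodes the transcription factor of IL-4 and IL-13. It was nearly constant in the controls, at 135.5, 138.5 and 136.3 CPM, and had 126.5, 91.7 and 135.7 CPM in aPU.1KO mice. Only aPU.1KO mouse 2 was far from the controls. Stat6 had a log2 fold change of -0.21 (95% interval -0.56 to 0.13, edgeR adjusted p = 0.392). Leaving out aPU.1KO mouse 2 gave -0.064, and leaving out aPU.1KO mouse 3 gave -0.32. It shares 40 exonic bases with Nab2 on the opposite strand.

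Socs3 (ENSMUSG00000053113; chromosome 11, 117966079 to 117970047, minus strand) encodes the feedback inhibitor that STAT3 induces. It had 57.0, 54.3 and 50.0 CPM in the controls and 81.1, 121.8 and 24.4 CPM in aPU.1KO mice. Mice 1 and 2 of the aPU.1KO group lay above every control and mouse 3 below every control. The highest library was 1.14 times the lowest among controls and 4.99 times among aPU.1KO mice. The means were 53.8 ± 3.52 and 75.8 ± 48.9 CPM (SD, n = 3), and the log2 fold change was 0.49 (standard error 0.49, 95% interval -0.68 to 1.67, edgeR adjusted p = 0.565). Without aPU.1KO mouse 2 the log2 fold change was -0.033, and without aPU.1KO mouse 3 it was 0.92, at an unadjusted p under 0.05 (edgeR adjusted p = 0.0782).

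The order of mice seen in Socs3, highest of all 6 in aPU.1KO mouse 2 and lowest of all 6 in aPU.1KO mouse 3, was shared by 3 of the 10 genes (Jak2, Socs3 and Stat3). It was found in 10 of 24 STAT3-induced genes (Bcl3, Fos, Icam1, Junb, Mcl1, Myc, Nfil3, Rnd1, Sbno2 and Zfp36), in 5 of 20 STAT6-induced genes (Chil3, Egr2, Irf4, Klf4 and Socs1) and in 604 of all 13925 genes tested, or 4.34%. The other STAT3-induced genes, among them Hp, Lrg1, Saa3 and Timp1, did not have this order. The order was chosen after the values were seen, and neither it nor a link to STAT3 was tested. Fos, an immediate-early gene, had 631.4, 727.5 and 543.1 CPM in the controls and 865.7, 1249 and 477.6 CPM in aPU.1KO mice. Zfp36, which encodes the mRNA-destabilizing protein tristetraprolin, had 313.4, 357.9 and 254.1 CPM in the controls and 421.4, 667.0 and 237.7 CPM in aPU.1KO mice. The ligand gene Il6 followed the same order, with 8.01, 5.47 and 7.26 CPM in the controls and 4.83, 11.5 and 0.710 CPM in aPU.1KO mice. Fos, Zfp36 and Il6 were also named after their values were seen.

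**Figure D3:**
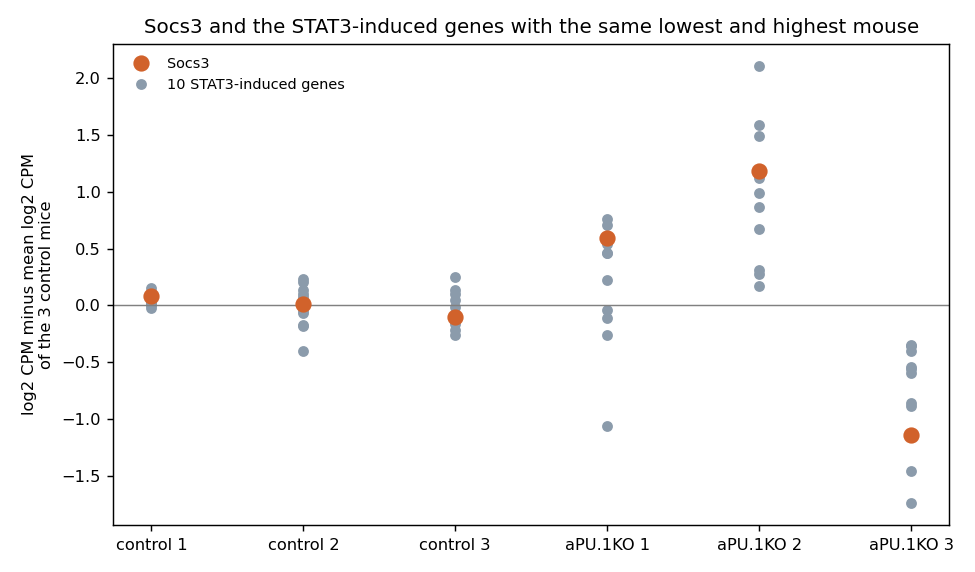
Difference of log2 CPM from the mean of the 3 control mice (y axis) in each of the 6 mice (x axis) for Socs3 and the 10 STAT3-induced genes that are highest in aPU.1KO mouse 2 and lowest in aPU.1KO mouse 3. The 10 genes were selected for this order, so their position in the last 2 mice is fixed by the choice.

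Levels of different genes were compared as CPM per kilobase of merged exons. In control mice Stat6 was the highest, with 36.2 ± 0.413 CPM per kilobase (SD, n = 3), followed by Il10rb with 32.2 ± 5.35, Stat3 with 23.9 ± 1.25, Il6st with 22.5 ± 1.62 and Socs3 with 21.1 ± 1.38 CPM per kilobase. Lower levels were found for Jak2 (9.31 ± 0.582 CPM per kilobase), Il4ra (6.21 ± 0.473), Il6ra (5.11 ± 0.185), Il10ra (3.78 ± 1.51) and Il13ra1 (1.52 ± 0.322). Only the neighbours Stat3 and Il6st, and Il6st and Socs3, overlapped between control libraries. The highest gene was thus 23.9 times the lowest in controls, and 50.8 times in aPU.1KO mice. The private chains of the IL-6 and IL-10 receptors were below their shared partners in level per kilobase. With exons of all annotated transcripts as the length, the order from the 2nd to the 5th place became Il6st (22.2 CPM per kilobase), Socs3 (18.6), Il10rb (15.7) and Stat3 (15.6), and the other 6 genes kept their places.

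Because macrophage markers were lower in aPU.1KO mice, the counts of each gene were also set against the summed count of the 16 macrophage markers in the same library. For Il10ra this ratio was 0.00796, 0.0127 and 0.00783 in the controls and 0.00786, 0.0116 and 0.0119 in aPU.1KO mice. The groups overlapped, with a log2 difference of 0.15 (exact two-sided permutation p = 0.9). For Il13ra1 the ratio was 0.00302, 0.00758 and 0.00310 in the controls and 0.00362, 0.00955 and 0.00714 in aPU.1KO mice, which also overlapped (log2 difference 0.60, exact permutation p = 0.3). Il4ra (log2 difference 1.43, exact permutation p = 0.3) and Socs3 (2.14, exact permutation p = 0.2) overlapped as well. The other 6 genes were higher per marker count in every aPU.1KO library, as were 76.2% of all 13925 genes tested, since the marker sum in the denominator was lower in aPU.1KO mice. Jak2, with a log2 fold change of -0.017 in CPM, had a log2 difference of 1.91 per marker count for this reason, so nothing is read from these 6. Il6st had 0.121, 0.463 and 0.111 counts per marker count in the controls and 0.530, 0.763 and 0.540 in aPU.1KO mice (log2 difference 1.71, exact permutation p = 0.1, the smallest possible). A fit with the mean log2 level of the macrophage markers as a covariate gave a log2 fold change of -0.43 for Il10ra and of -0.78 for Il13ra1, neither at an unadjusted p under 0.05. In that fit Il4ra had a log2 fold change of -0.78 and was the only gene of the 10 with an unadjusted p under 0.05, and the edgeR adjusted p of all 10 was 0.999. The marker level and the genotype move together in these 6 mice, and their parts cannot be told apart.

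**Figure D4:**
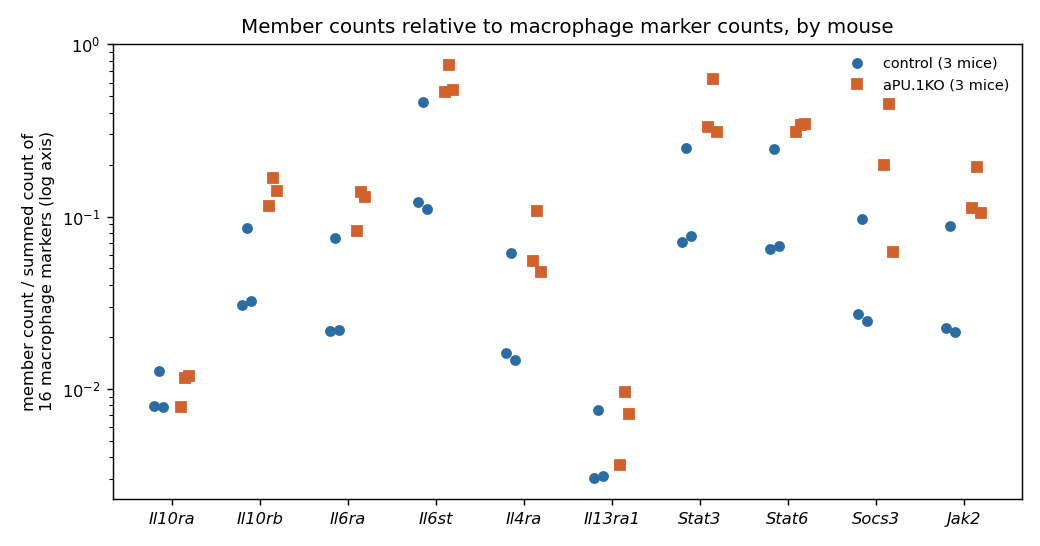
Count of each gene divided by the summed count of 16 macrophage markers in the same library (log axis), with 1 point per mouse. Il10ra, Il13ra1, Il4ra and Socs3 overlap between groups, and the other 6 genes are higher in all 3 aPU.1KO mice, as are 76.2% of all genes tested, since the denominator is lower in those mice.

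Among 16 ligand genes of these receptor families, 8 had enough counts to be tested, of which 1 was lower and 1 was higher in aPU.1KO mice at an unadjusted p under 0.05, near the shares of all genes (13.7% lower, 11.9% higher), with a median log2 fold change of -0.56. Il4 had at most 10 and Il13 at most 8 counts in any library, and Il20, Il22 and Il24 had 0 counts in all 6 libraries. A single library can still give 0 counts at an expected count of up to about 3. Ctf1, encoding cardiotrophin-1, a gp130 ligand, had 1.80, 1.93 and 1.82 CPM in the controls and 3.20, 5.88 and 3.65 CPM in aPU.1KO mice. All aPU.1KO mice were above all controls, and the log2 fold change was 1.2 (standard error 0.28, edgeR adjusted p = 0.0786). Lif, another gp130 ligand, had 2.70, 2.41 and 3.41 CPM in the controls and 1.47, 0.814 and 1.80 CPM in aPU.1KO mice (log2 fold change -1.06, standard error 0.33, edgeR adjusted p = 0.117). Ebi3, a subunit of IL-27, had a log2 fold change of -1.54 (edgeR adjusted p = 0.195) with overlapping groups. Its unadjusted p was just above 0.05 and fell below it in DESeq2, in limma-voom, with other scaling factors (RLE and upper quartile) and without control mouse 2. That of Lif was above 0.05 without control mouse 3. Il10 itself, named after its values were seen, had 1.71, 0.482 and 1.55 CPM in the controls and 0.864, 0.271 and 0.142 CPM in aPU.1KO mice, which overlapped. Without control mouse 2, 5 of the ligand genes had an unadjusted p under 0.05, and without control mouse 3, 1 had. The share of all genes in those fits was not computed, so nothing about the ligands is read from these shifts.

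Of 14 further receptor chains, 11 were tested, 7 of them lower and 0 of them higher at an unadjusted p under 0.05 (13.7% and 11.9% of all genes), with a median log2 fold change of -0.74. Il2rg, the common γ chain of the type I IL-4 receptor, had 9.87, 5.73 and 8.05 CPM in the controls and 4.68, 2.76 and 2.98 CPM in aPU.1KO mice. The groups did not overlap, and the log2 fold change was -1.19 (standard error 0.29, edgeR adjusted p = 0.0830). Il27ra, the private chain of the IL-27 receptor (log2 fold change -1.43, standard error 0.35, edgeR adjusted p = 0.0850), and Il20rb, a chain of the IL-20 receptors (log2 fold change -0.74, standard error 0.22, edgeR adjusted p = 0.105), were lower in every aPU.1KO mouse as well. Il13ra2, the decoy receptor of IL-13, is added after its values were seen, with 18.4, 4.64 and 24.1 CPM in the controls and 3.10, 0.678 and 4.93 CPM in aPU.1KO mice. As for Spi1 and the summed macrophage markers, control mouse 2 was the lowest control of Il13ra2, and it lay below aPU.1KO mouse 3. Leaving out either control mouse 1 or aPU.1KO mouse 1 left 4 of the 11 with an unadjusted p under 0.05, with no share of all genes computed for those fits.

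Of 8 other JAK and STAT genes, 7 were tested, 2 of them lower and 1 of them higher at an unadjusted p under 0.05 (13.7% and 11.9% of all genes), with a median log2 fold change of -0.22. Stat5a, used by growth hormone and prolactin among others, had 53.3, 56.4 and 55.4 CPM in the controls and 66.4, 66.8 and 62.5 CPM in aPU.1KO mice, all above the controls (log2 fold change 0.24, standard error 0.067, edgeR adjusted p = 0.0971). Jak3, the kinase of the common γ chain, had 45.5, 39.3 and 51.5 CPM in the controls and 29.8, 37.7 and 31.9 CPM in aPU.1KO mice (log2 fold change -0.46, standard error 0.13, edgeR adjusted p = 0.105). Jak1, a kinase shared by these receptors, was slightly lower in every aPU.1KO mouse (log2 fold change -0.26, standard error 0.11, edgeR adjusted p = 0.187). The unadjusted p of Jak1 was above 0.05 with any 1 of the control mice left out and also without aPU.1KO mouse 2, where its log2 fold change was -0.17, and that of Stat5a was above 0.05 without control mouse 1. All 18 inhibitors and receptor-shedding proteases were tested, 5 lower and 1 higher by the same threshold, and their median log2 fold change was -0.024. Ptpn6, the phosphatase SHP-1 of blood cells, had 20.1, 5.34 and 22.1 CPM in the controls and 3.10, 3.21 and 3.32 CPM in aPU.1KO mice (log2 fold change -2.31, standard error 0.51, edgeR adjusted p = 0.0783). The differences were smaller for Adam10, a protease that sheds IL-6Rα (log2 fold change -0.33, edgeR adjusted p = 0.102), and for Ptpn1, the phosphatase PTP1B (-0.39, edgeR adjusted p = 0.107). Without control mouse 1, 1 of the JAK and STAT genes and 3 of the inhibitors and proteases had an unadjusted p under 0.05. For that fit the share of all genes was not computed.

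All 24 genes listed as induced by STAT3 were tested, 6 of them lower and 2 of them higher at an unadjusted p under 0.05 (13.7% and 11.9% of all genes), with a median log2 fold change of -0.034. Il1rn, the IL-1 receptor antagonist, had 16.3, 5.03 and 13.5 CPM in the controls and 2.08, 1.31 and 1.99 CPM in aPU.1KO mice (log2 fold change -2.70, standard error 0.46, edgeR adjusted p = 0.0722). Control mouse 2 was the lowest control of Il1rn, as it was for the summed macrophage markers, and the part of the markers in this difference was not tested. Fgl2, a fibrinogen-like protein of immune cells, was lower as well (log2 fold change -1.42, standard error 0.28, edgeR adjusted p = 0.0764). The kinase gene Pim3 had the opposite sign, with 138.4, 157.3 and 138.5 CPM in the controls and 201.1, 195.5 and 181.6 CPM in aPU.1KO mice (log2 fold change 0.41, standard error 0.087, edgeR adjusted p = 0.0773). In all these genes the groups did not overlap. Of the 24 genes, 5 had an unadjusted p under 0.05 without control mouse 1 or control mouse 3. Leaving out aPU.1KO mouse 3 made this 12. No share of all genes at that threshold was computed for these fits, so nothing particular to the list is read from them.

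Of 23 genes listed as induced by STAT6, 20 were tested, 7 of them lower and 1 of them higher at an unadjusted p under 0.05 (13.7% and 11.9% of all genes), with a median log2 fold change of -0.33. Mrc1, the mannose receptor of alternatively activated macrophages, fell and was the only gene of the 6 pathway lists (ligands, receptor chains, JAK and STAT genes, inhibitors and proteases, STAT3-induced and STAT6-induced genes) with an edgeR adjusted p under 0.05. It had 95.5, 56.1 and 72.3 CPM in the controls and 23.0, 22.1 and 24.2 CPM in aPU.1KO mice (log2 fold change -1.70, standard error 0.19, edgeR adjusted p = 0.0389). Its groups were far apart, and its edgeR adjusted p was above 0.05 when any mouse other than control mouse 2 was left out. DESeq2 gave more genes of the 6 lists an adjusted p under 0.05. Lower were 2 of 16 ligands, 3 of 14 receptor chains and 1 of 8 JAK and STAT genes. So were 4 of 18 inhibitors and proteases, 4 of 24 STAT3-induced and 4 of 23 STAT6-induced genes, against 7.48% of all genes. Higher were 1 ligand and 1 STAT3-induced gene, against 3.51%. Several STAT6-induced genes, Mrc1 among them, are expressed mainly by macrophages, but not all moved with the macrophage markers. Among controls, Mrc1 was lowest in control mouse 2, as the marker sum was. Retnla and Mgl2 were highest there, and their groups overlapped. Retnla had 36.0, 74.5 and 12.8 CPM in the controls and 14.3, 43.9 and 32.7 CPM in aPU.1KO mice. Both were named after their values were seen, and the part of the markers was not tested. The gene that was higher was Cish, named after its values were seen, with 3.11, 2.45 and 4.52 CPM in the controls and 4.88, 47.7 and 6.16 CPM in aPU.1KO mice, of which mouse 2 stood far above the rest. Cish, an inhibitor induced by STAT5, also stands in the list of inhibitors and proteases, as does Socs1. Of the 20 genes, 3 had an unadjusted p under 0.05 without control mouse 1, 4 without control mouse 3, 5 without aPU.1KO mouse 1 and 11 without aPU.1KO mouse 3. The share of all genes in those fits was not computed, so these shifts cannot be read as particular to the list.

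**Figure D5:**
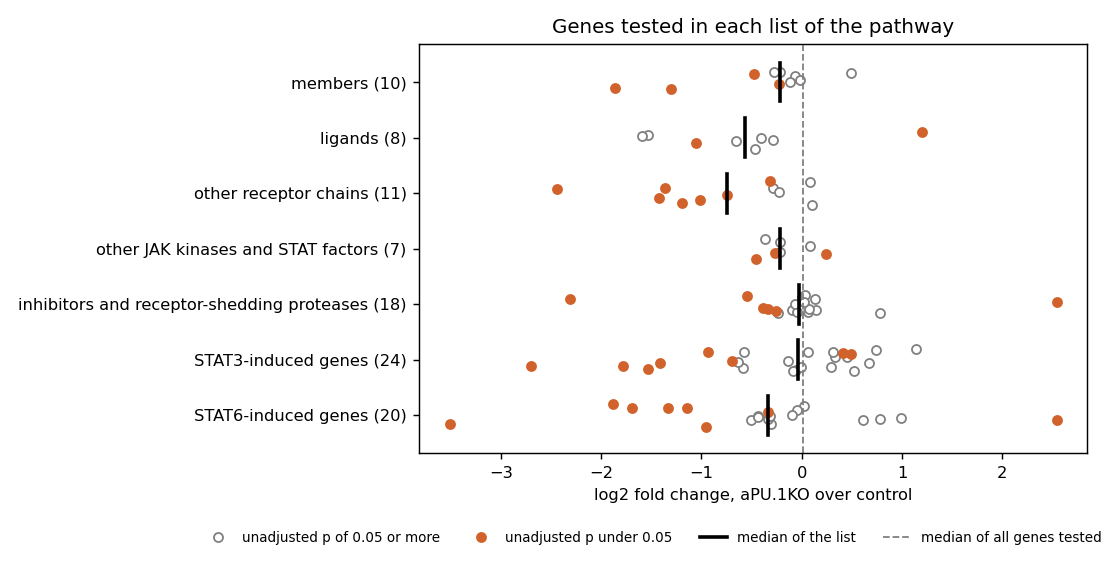
Log2 fold change, aPU.1KO over control (x axis), of every gene tested in each list, with filled points at an unadjusted p under 0.05 and a bar at the median of the list. The medians run from -0.74 for the other receptor chains to -0.024 for the inhibitors and proteases, beside 0.014 for all genes tested (dashed line).

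For the gene with the largest and the gene with the smallest difference, the 3 genes with the most similar pattern were found among 11876 genes, by the root mean square difference of mean-centred log2 CPM over the 6 libraries. For Il10ra these were Cerk, encoding ceramide kinase (0.0876), Coro1a, encoding an actin-binding protein of blood cells (0.0978), and H2-DMa, encoding a chaperone of antigen presentation (0.102). Coro1a had 28.8, 12.6 and 30.4 CPM in the controls and 6.35, 5.65 and 7.44 CPM in aPU.1KO mice, with control mouse 2 between the other controls and the aPU.1KO mice as for Il10ra. For Jak2 the nearest were Ccdc157 (0.0283), Qk, encoding the RNA-binding protein Quaking (0.0309), and Txndc5 (0.0352), all with aPU.1KO mouse 2 as the highest and aPU.1KO mouse 3 as the lowest library. These genes were selected for their similarity, so this order and the position of control mouse 2 in Coro1a follow from the choice.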

How the data were processed

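RNA-seq libraries of the adipocyte fraction came from 3 control and 3 aPU.1KO mice. The authors quantified reads with Salmon (option validateMappings), summed transcripts to genes and deposited estimated counts, which are whole numbers without normalization. FastQC and the build GRCm38 are named in the submitters' processing notes, and versions and annotation are not given in the sources used here. Libraries held 20550252 to 69283842 counts, and low counts limit the precision of weakly expressed genes. The libraries of a group were not duplicates, since counts of any pair gave a chi-square of at least 20.4 per degree of freedom. Symbols, positions and exon lengths came from GENCODE M21 (35031 of 35122 identifiers matched), and upstream sequence from RefSeq.

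The test between groups was edgeR's (version 4.0.16, run in R 4.3.3, with filterByExpr, TMM, glmQLFit with its defaults, glmQLFTest, Benjamini-Hochberg adjustment over 13925 genes). Log2 CPM used a prior count of 2 and ratios of 2 genes an offset of 0.5 counts. Exact permutation tests were two-sided, and 3 against 3 mice cannot give a p below 0.1. Further tools were DESeq2 1.42.0, limma 3.58.1 (voom), BLAST 2.17.0 and, in Python 3.11.15, matplotlib 3.10.9. The steps were tested on simulated counts.

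The 10 genes and the lists were chosen with earlier results of these data known, and no set test was run. Named from each pathway list were genes with an adjusted p under 0.05, otherwise the 3 lowest p, and Adipoq, Adgre1 and Spi1 were named as checks. Alternatives were RLE and upper quartile factors, other filters, DESeq2, limma-voom, robust dispersion, legacy = FALSE, control mouse 1 thinned to the median depth, a macrophage marker covariate, and each mouse left out. Those for the lists and their named genes were chosen after the data were seen. Control and aPU.1KO libraries share no replicate numbers in the labels.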

Additional observations from a re-analysis of the deposited data

How the results depend on the processing

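Calls depended on the test and on single mice, and not on the depth of control mouse 1: thinned to the median depth, the edgeR adjusted p of Il10ra was 0.0746 and 31 genes were called in all. The number of the 10 genes with an adjusted p under 0.05 was 0 in edgeR, 2 in DESeq2 and 0 to 2 with each mouse left out. At an unadjusted p the number was 4, but 1 with the macrophage covariate and 2 to 4 with each mouse left out. The adjusted p over all alternatives ran from 3.05e-05 to 0.313 for Il10ra, outside the covariate fit, and its log2 fold change from -2.16 to -1.67 with each mouse left out. Without control mouse 2, edgeR called 1193 of 14306 genes, and without control mouse 1 it called 0, beside 33 of 13925 with all mice. The cause was not tested.

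The covariate turned the sign of Il10rb (0.23), Il6ra (0.038) and Socs3 (-0.071). With each mouse left out, Il6ra ran from -0.31 to -0.015, Stat6 from -0.32 to -0.064, Stat3 from -0.22 to 0.040, Socs3 from -0.033 to 0.92, Jak2 from -0.12 to 0.067 and the log2 ratio of Il6ra to Il6st from -0.088 to 0.22. Of the ligand genes, DESeq2 gave 5 and limma-voom 4 an unadjusted p under 0.05, beside 2 in edgeR, and 1 to 5 with each mouse left out. The same ranges were 4 to 6 for other receptor chains, 1 to 4 for other JAK and STAT genes, 3 to 6 for inhibitors and proteases, 5 to 12 for STAT3-induced and 3 to 11 for STAT6-induced genes. Shares of all genes at an unadjusted p were computed for the main edgeR fit only. Counts at an unadjusted p from DESeq2, limma-voom and the other fits therefore have no background to be read against. No paired analysis was possible because the labels give no shared replicate numbers, and although the controls were littermates in the study, the sources used here do not say which mice share a litter.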
